A study of Arabidopsis thaliana with 16 samples.

Results

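CSLC12 (AT4G07960), AT2G39690 and AT5G60630 are 3 protein-coding genes of Arabidopsis thaliana whose transcripts stood high in wild-type roots exposed to ethylene and low in every other group of the study. They were chosen from these same measurements, because ethylene raised them in the wild type but not in the aux1 mutant, while treatment with auxin left them where they were. The 3 genes are 3 of the 13836 features tested in the series, and each has 1 probe set on the Affymetrix array. Since the ethylene and auxin responses chose the genes, those responses are given below as a description without a test. For the 3 genes an adjusted p is given only for ein2 against the wild type, and it is a description too. The choice did not use that contrast, but it did use the same arrays through the auxin responses. The genes also passed the filter for testing through Col ethylene alone, not through the arrays of that contrast. Calls on the other contrasts are counted below only to describe which features share them.

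The array measured RNA from roots of seedlings grown for 3 days in the dark at 22 °C, on 16 arrays in 8 groups of 2. In the ethylene experiment, seedlings of aux1-7 (aux1) and of wild-type Col-0 (Col) were flushed for 4 h with air that held 10 ppm ethylene or with hydrocarbon-free air alone, which gave the groups aux1 ethylene, aux1 air, Col ethylene and Col air. In the auxin experiment, seedlings of ein2-5 (ein2) and of Col were sprayed with 1 µM indole-3-acetic acid (IAA, the main natural auxin) in 0.01% ethanol or with 0.01% ethanol alone (mock) and kept in the dark for 4 h, which gave the groups ein2 IAA, ein2 mock, Col IAA and Col mock. The roots were cut from the hypocotyls in both experiments and those of many seedlings were collected together. No ein2 seedlings were given ethylene and no aux1 seedlings were given IAA. The submitters call both samples of a group biological replicates. They correlated at 0.993 to 0.998 over all probe sets, and their small number limits the precision. AUX1 and EIN2 themselves were not analysed here, since neither had a named probe set.

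Ethylene is a gaseous hormone that shortens and thickens the root, and EIN2 is the membrane protein that carries its signal from the receptors towards the nucleus. AUX1 is a carrier that brings auxin into root cells, and ethylene is known to slow root growth partly by raising auxin synthesis and transport in the root tip. CSLC12 belongs to the cellulose synthase-like C family, whose enzymes make the glucan backbone of xyloglucan, the polysaccharide that coats cellulose in the primary cell wall. The annotation used here gives AT2G39690 and AT5G60630 no name and no function, and they are called by their locus codes.

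CSLC12 had the largest ethylene difference of the 3 in Col. In aux1 roots its GCRMA expression value (log2 scale, as deposited) was 2.85 and 2.37 on the ethylene arrays, against 2.38 and 2.38 on the air arrays. In Col roots it was 6.13 and 5.19 on the ethylene arrays, against 2.33 and 2.41 on the air arrays. The Col ethylene arrays thus stood far above all others, and among the other arrays only replicate 1 of aux1 ethylene left the narrow band near 2.4. In the auxin experiment CSLC12 lay between 2.29 and 2.37 on all 8 arrays, at 2.29 and 2.34 in ein2 IAA, 2.33 and 2.37 in ein2 mock, 2.37 and 2.37 in Col IAA, and 2.35 and 2.31 in Col mock. The ethylene difference was 0.23 ± 0.24 in aux1 and 3.29 ± 0.24 in Col (moderated SE, n = 2 arrays in each group), a 9.81-fold higher signal in Col ethylene than in Col air. As with every difference here, this SE uses 1 spread estimated over all 8 groups. The SD of CSLC12 was 0.67 in Col ethylene and at most 0.34 in the other groups, so the SE understates the spread in Col ethylene. These are bulk roots, in which more cells of a type and more RNA per cell cannot be told apart.

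AT2G39690 was likewise high in Col ethylene and low in the other groups. It read 2.41 and 2.14 in aux1 ethylene, against 2.15 and 2.22 in aux1 air. It read 4.98 and 4.80 in Col ethylene, against 2.74 and 2.20 in Col air. The Col ethylene arrays agreed closely for this gene, whereas the Col air arrays were 0.53 apart and replicate 1 was the higher. In the auxin experiment its values lay between 2.10 and 2.15 on the 8 arrays, with no group apart from the rest. The ethylene difference was 0.09 ± 0.15 in aux1 and 2.42 ± 0.15 in Col (5.34-fold).

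AT5G60630 had the smallest ethylene difference of the 3. It read higher in ein2 than in Col, though it was not called in mock or with IAA. It read 2.96 and 2.79 in aux1 ethylene, against 2.81 and 2.77 in aux1 air. It read 4.61 and 4.30 in Col ethylene, against 2.80 and 2.82 in Col air. In the auxin experiment it read 2.97 and 3.16 in ein2 IAA, 2.91 and 3.40 in ein2 mock, 2.82 and 2.79 in Col IAA, and 2.78 and 2.80 in Col mock. Both ein2 arrays were above both Col arrays in mock and with IAA, as they were for 33.4% and 26.9% of all features. The ethylene difference was 0.08 ± 0.16 in aux1 and 1.64 ± 0.16 in Col (3.12-fold).

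**Figure D1:**
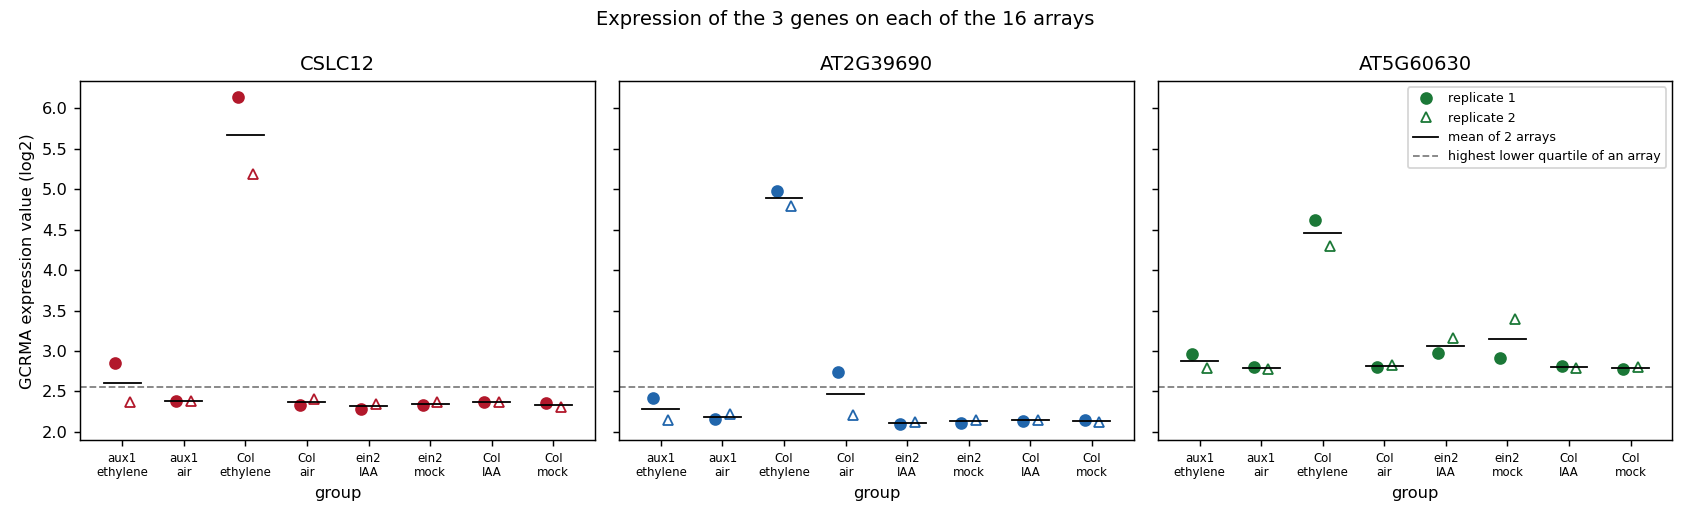
GCRMA expression values (log2) of CSLC12, AT2G39690 and AT5G60630 on each of the 16 arrays, by group, with filled circles for replicate 1, open triangles for replicate 2, a short line for the mean of 2 arrays and a dashed line at 2.55, the highest lower quartile of any array. Both Col ethylene arrays are above 4 for each gene and no other array is.

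The levels outside Col ethylene lay at or near the background of the array, and this limits what can be said of them. The lower quartile of all probe sets on an array was at most 2.55. Of the 14 arrays outside Col ethylene, 13 were below that value for CSLC12 and 13 for AT2G39690. AT5G60630 was above it on all 14, with a median of 2.81, and its values there were higher than those of between 29.6% and 37.0% of all probe sets on an array. In Col ethylene, CSLC12 was higher than 50.9% and 45.8% of the probe sets, AT2G39690 than 44.2% and 43.9%, and AT5G60630 than 42.6% and 41.6%. The transcripts thus reached a level near or somewhat below the middle of the array in Col ethylene. With every value under 2.55 set to 2.55, the ethylene difference in Col was 3.11 for CSLC12, 2.24 for AT2G39690 and 1.64 for AT5G60630.

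All 3 genes entered the tests only through Col ethylene. A feature was tested if it was above 4 on at least 2 arrays, and the 2 Col ethylene arrays were the only ones above 4 for each gene. That they differed from the other groups follows from how they were chosen and filtered. For the background, 4.05% of the features were called higher with ethylene in Col (limma's moderated test, adjusted p under 0.05), 0.101% were called for an ethylene effect that was lower in aux1, and 24.6% had both Col ethylene arrays above both Col air arrays. The differences in ethylene effect, aux1 minus Col, were -3.06 ± 0.33 for CSLC12, -2.33 ± 0.22 for AT2G39690 and -1.56 ± 0.22 for AT5G60630. CSLC12 had the most negative such difference of all 13836 features, AT2G39690 was in place 8 and AT5G60630 in place 24.

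The part of the Col ethylene difference that was also seen in aux1 was small for these genes. It was 7.06% for CSLC12, 3.70% for AT2G39690 and 5.14% for AT5G60630 on the log2 scale. Across the 561 features called higher with ethylene in Col, the median of this share was 84.8% and the quartiles were 50.0% and 104.7%. Between 41 and 46 of the 561 had a lower share than the 3 genes. These shares use the values that chose the genes, and the aux1 arrays were at or near background for each of the 3 genes.

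**Figure D2:**
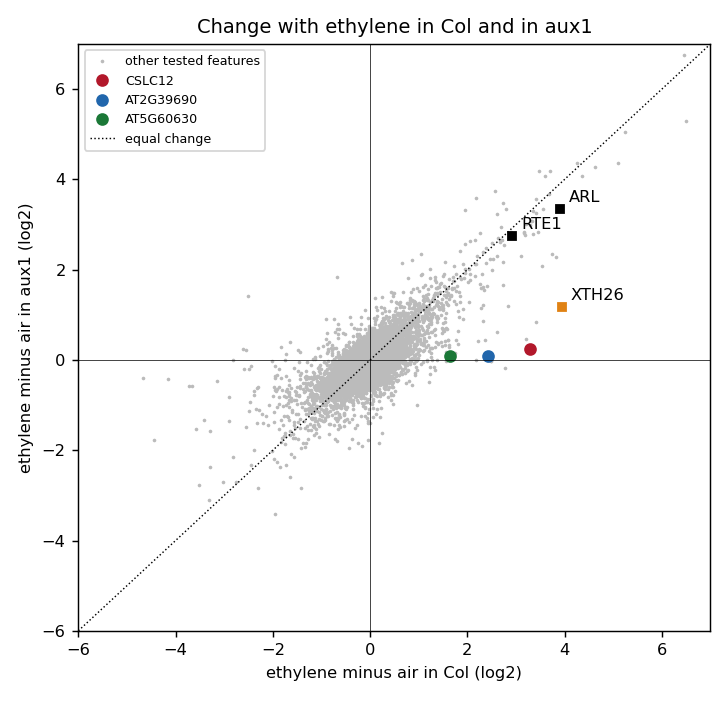
Difference between ethylene and air (log2) in Col on the x axis and in aux1 on the y axis for each of the 13836 features tested, with the 3 genes as coloured circles and RTE1, ARL and XTH26 as squares. The dotted line marks equal change, and the 3 genes lie close to 0 in aux1 with 1.64 to 3.29 in Col.

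The aux1 seedlings did respond to ethylene in other genes. RTE1, a regulator of the ethylene receptor ETR1, read 9.68 and 9.83 in aux1 ethylene, against 6.86 and 7.17 in aux1 air. It read 9.89 and 9.87 in Col ethylene, against 7.07 and 6.85 in Col air. RTE1 rose by 2.74 ± 0.18 in aux1 (adjusted p = 5.00e-06) and by 2.92 ± 0.18 in Col (2.17e-06). ARL, which promotes organ growth, rose by 3.34 ± 0.35 in aux1 (1.57e-04) and by 3.90 ± 0.35 in Col (4.16e-05). Neither had a called difference between the genotypes (adjusted p of 0.989 and 0.951). Of the 17 ethylene signalling and feedback genes listed for this check, these and EIN3 were the 3 with a named probe set, and EIN3, a transcription factor of the pathway, stood at 0.08 ± 0.14 in aux1 and -0.06 ± 0.14 in Col.

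The IAA arrays showed a strong auxin response in the same way. LBD29, a transcription factor gene of lateral root formation, read 10.45 and 10.63 in ein2 IAA, against 5.78 and 6.13 in ein2 mock. It read 10.21 and 10.61 in Col IAA, against 4.16 and 4.63 in Col mock. All 5 tested genes of the 19 listed for auxin supply and response (GH3.1, GH3.3, GH3.5, LBD16 and LBD29) rose with IAA in both genotypes, where 1.94% of the features were called higher in ein2 and 4.20% in Col. The call for LBD16 in Col was lost without replicate 1 of Col IAA (adjusted p = 0.0541) or of Col mock (0.0582). Against this, the IAA difference of CSLC12 was -0.03 ± 0.24 in ein2 and 0.04 ± 0.24 in Col. That of AT2G39690 was -0.03 ± 0.15 in ein2 and 0.01 ± 0.15 in Col. That of AT5G60630 was -0.09 ± 0.16 in ein2 and 0.01 ± 0.16 in Col. A fall of CSLC12 or AT2G39690 may not have been measurable on these arrays, since the mock values were already below the lower quartile. AT5G60630 stood at 2.78 to 2.82 on the Col mock and Col IAA arrays. The lower quartile is no detection limit, so whether a fall of AT5G60630 was measurable is not known.

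The comparison of ein2 with Col asked whether the level of the 3 genes without added ethylene differed where the ethylene signal was blocked. In mock roots CSLC12 averaged 2.35 ± 0.03 in ein2 and 2.33 ± 0.03 in Col (SD, n = 2 each), a difference of 0.02 ± 0.24 (limma, adjusted p = 0.982). The 95% interval of the ratio ran from 0.706 to 1.45. AT2G39690 averaged 2.13 ± 0.03 in ein2 and 2.13 ± 0.02 in Col, a difference of 0.00 ± 0.15 (adjusted p = 0.994, interval of the ratio 0.792 to 1.27). For both genes the SE and the interval overstate the spread of the mock groups. They use the spread shared over all 8 groups. Its largest SD was 0.67 in Col ethylene for CSLC12 and 0.38 in Col air for AT2G39690. Both genes were below the lower quartile in both genotypes, so a lower level in ein2 may not have been detectable.

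AT5G60630 averaged 3.15 ± 0.34 in ein2 mock and 2.79 ± 0.02 in Col mock. The difference of 0.36 ± 0.16 was not called (limma, adjusted p = 0.169), and the interval of the ratio ran from 1.02 to 1.63. The SE is below the SD of 0.34 in ein2 mock, so both it and the interval understate the spread there. With IAA it averaged 3.07 ± 0.13 in ein2 and 2.80 ± 0.02 in Col, a difference of 0.26 ± 0.16 (adjusted p = 0.413, interval 0.947 to 1.52). The ein2 and Col arrays of AT5G60630 did not overlap under either treatment. Both ein2 arrays were above both Col arrays for 33.4% of all features in mock and for 26.9% with IAA, so that such a separation was common. With IAA, CSLC12 differed by -0.06 ± 0.24 (adjusted p = 0.947) and AT2G39690 by -0.03 ± 0.15 (adjusted p = 0.949). For scale, 5.35% of the features were called higher and 5.74% lower in ein2 than in Col in mock, and 4.02% and 3.19% with IAA. ARL and RTE1 were among the lower ones, at -3.55 ± 0.35 and -1.19 ± 0.18 in mock (adjusted p = 6.23e-05 and 0.00124). When ein2 mock replicate 1 was left out, the difference of AT5G60630 in mock was 0.61, and without ein2 mock replicate 2 it was 0.12. Each of these values rests on a single ein2 mock array.

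In order of level over the 8 groups, Col ethylene came first for each gene, and the gap to the highest array of the next group was 2.34 for CSLC12, 2.06 for AT2G39690 and 0.90 for AT5G60630. The next group was aux1 ethylene for CSLC12 (mean 2.61 ± 0.34, SD), Col air for AT2G39690 (2.47 ± 0.38) and ein2 mock for AT5G60630 (3.15 ± 0.34). After Col ethylene, neighbouring groups in the order overlapped or lay at most 0.0131 apart at their nearest arrays, so that the order of neighbours was not set beyond their spread. For AT5G60630 the ein2 arrays (2.91 or above) all stood above those of Col air, Col IAA, Col mock and aux1 air (2.82 or below). Between aux1 air and Col air the 3 genes stood at 0.01 ± 0.24, -0.28 ± 0.15 and -0.02 ± 0.16. With the log2 means converted to a linear scale, the other 7 group means of CSLC12 were 9.81% to 12.04% of the Col ethylene mean. They were 14.5% to 18.7% for AT2G39690 and 31.5% to 40.5% for AT5G60630.

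Replicate 1 read higher than replicate 2 for each of the 3 genes both in aux1 ethylene and in Col ethylene. The gap between the replicates was 0.48 in aux1 ethylene and 0.94 in Col ethylene for CSLC12, 0.27 and 0.18 for AT2G39690, and 0.17 and 0.31 for AT5G60630. Without replicate 1 of aux1 ethylene, the ethylene difference in aux1 was -0.01 for CSLC12, -0.05 for AT2G39690 and 0.00 for AT5G60630. Without replicate 2 it was 0.47, 0.23 and 0.17. Markers of root hair cells were higher on replicate 1 in the ethylene experiment. Of 5 such markers, EXPA7 and EXPA18, which encode wall-loosening expansins of root hairs, had a named probe set, and both were well above background on every array. Their summed linear signal was 895 to 1313 in aux1 ethylene, 638 to 729 in aux1 air, 1747 to 2663 in Col ethylene and 734 to 1631 in Col air, with replicate 1 the higher array in each of these 4 groups. In the auxin experiment it was 561 to 829 in ein2 IAA, 713 to 996 in ein2 mock, 342 to 572 in Col IAA and 384 to 652 in Col mock. There replicate 1 was the higher array in the ein2 groups and replicate 2 in the Col groups. EXPA7 had an ethylene difference of 0.84 ± 0.38 in aux1 (adjusted p = 0.262) and of 1.26 ± 0.38 in Col (0.0686), and EXPA18 of 0.55 ± 0.44 (0.572) and 0.78 ± 0.44 (0.368). In Col air, replicate 1 minus replicate 2 was 0.99 for EXPA7 and 1.25 for EXPA18. It was -0.07 for CSLC12, 0.53 for AT2G39690 and -0.02 for AT5G60630 in that group. In ein2 mock it was 0.59 for EXPA7 and 0.39 for EXPA18, beside -0.04 for CSLC12, -0.04 for AT2G39690 and -0.49 for AT5G60630. The part of root hair cells in the values of the 3 genes was not tested. The markers of endodermis, stele, root cap, root meristem and shoot that were listed to check the tissue were not analysed here, because none had a named probe set.

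CSLC12 was then set beside the other members of its family, of which CSLC4, CSLC5 and CSLC6 were tested. None of the 3 had a profile like that of CSLC12. CSLC4 is the family member best known for making the xyloglucan backbone. It read 8.53 and 8.50 in aux1 ethylene, against 8.92 and 8.61 in aux1 air, and 8.53 and 8.62 in Col ethylene, against 9.05 and 9.02 in Col air. CSLC4 fell by 0.46 ± 0.12 with ethylene in Col (limma, adjusted p = 0.0314), where 4.76% of the features were called lower, and stood at -0.25 ± 0.12 in aux1 (0.262). That fall was no longer called when any of the 4 Col arrays of the ethylene experiment was left out (adjusted p from 0.0739 to 0.171) or when the ethylene experiment was fitted by itself (0.134). CSLC4 was higher in ein2 than in Col in mock, at 0.40 ± 0.12 (adjusted p = 0.0481), a call lost after median centring (0.0784) or quantile normalization (0.0706) and without any 1 of 14 of the arrays, all but the aux1 air arrays (0.0526 to 0.207).

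CSLC5 had an ethylene difference of 0.55 ± 0.17 in aux1 (adjusted p = 0.078) and of 0.28 ± 0.17 in Col (0.407). CSLC6 had one of -0.19 ± 0.16 in aux1 (0.592) and of 0.24 ± 0.16 in Col (0.459). CSLC8 was at 3.42 to 3.90 on all 16 arrays and did not pass the filter. The difference in ethylene effect between aux1 and Col was not called for CSLC4 (0.20 ± 0.16), CSLC5 (0.27 ± 0.24) or CSLC6 (-0.43 ± 0.22). With IAA no CSLC gene was called in ein2 or in Col, and the differences of CSLC4, CSLC5 and CSLC6 ran from -0.19 to 0.03 in ein2 and from -0.25 to 0.14 in Col.

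**Figure D3:**
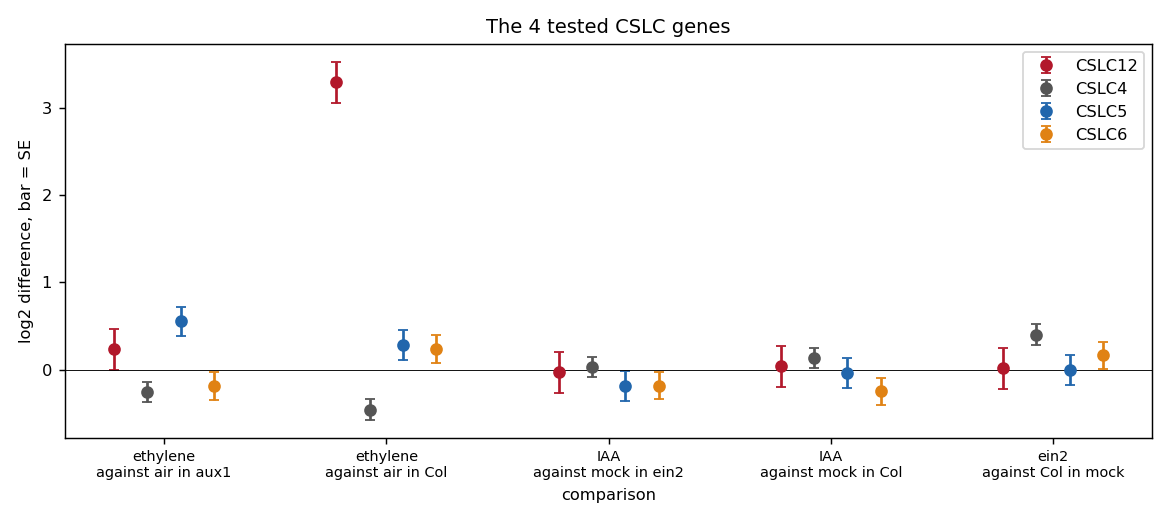
Log2 difference with its standard error (n = 2 arrays in each group) of CSLC12, CSLC4, CSLC5 and CSLC6 in 5 comparisons. CSLC12 stands at 3.29 with ethylene in Col, and every other value in the plot lies between -0.46 and 0.55.

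The wider set of wall genes gave few further measurements. Of 18 genes for xyloglucan synthesis and trimming, 4 were tested, all of them CSLC genes, and the xylosyltransferases and the other enzymes that add side chains were not analysed here. CSLA3 and CSLD2, the tested ones of 27 cellulose synthase and other cellulose synthase-like genes, were not called with ethylene in aux1 (0.10 ± 0.17 and 0.14 ± 0.18) or in Col (0.16 ± 0.17 and 0.38 ± 0.18). Of 33 XTH genes, whose enzymes cut and rejoin xyloglucan chains in the wall, 8 were tested. With ethylene, 0 rose and 1 fell in aux1 (background 3.34% and 3.76% of all features), while 1 rose and 2 fell in Col (4.05% and 4.76%). The median difference of the 8 was 0.07 in aux1 and -0.15 in Col, beside -0.01 and 0.03 over all features. No XTH gene was called for the difference between aux1 and Col, where 0.0434% of the features were called higher and 0.101% lower. With calls that rare, none among 8 genes says little of the XTH genes.

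XTH26, an XTH gene of root hairs, was the XTH gene most like CSLC12. It read 3.93 and 2.25 in aux1 ethylene, against 1.93 and 1.92 in aux1 air, and 6.81 and 5.21 in Col ethylene, against 2.19 and 1.95 in Col air. Its ethylene difference was 1.17 ± 0.50 in aux1 (adjusted p = 0.219), and it rose by 3.94 ± 0.50 in Col (4.62e-04). Its replicates were further apart than those of the 3 genes, by 1.69 in aux1 ethylene and 1.59 in Col ethylene, and replicate 1 was again the higher. The difference of -2.77 ± 0.70 between the genotypes was not called (adjusted p = 0.335). With ethylene in Col, XTH16 fell by 1.21 ± 0.21 (limma, adjusted p = 0.00373) and XTH21 fell by 1.66 ± 0.23 (8.39e-04). In aux1, XTH21 fell by 0.89 ± 0.23 (0.0387), a call lost after median centring (0.0567) and quantile normalization (0.0505), with no filter (0.0846), with the ethylene experiment by itself (0.143) and without any of 7 arrays (0.0564 to 0.239). With IAA, XTH16 and XTH33 fell in ein2 (-1.25 ± 0.21 and -1.24 ± 0.27, adjusted p of 0.00686 and 0.0284), and in Col XTH16 (-1.57 ± 0.21, 0.0011) and XTH21 (-1.08 ± 0.23, 0.0159) fell while XTH20 rose (0.91 ± 0.24, 0.0438). Of these 5 calls, 1.31% and 2.73% of all features being called lower in ein2 and in Col, only that of XTH16 in Col held with each array left out in turn. In mock, 2 of the 8 XTH genes were higher in ein2 than in Col, where 5.35% of all features were, XTH20 by 2.43 ± 0.24 (6.29e-05) and XTH33 by 0.92 ± 0.27 (0.0481), the second of which was lost under 14 of the alternatives, among them median centring (0.0572) and quantile normalization (0.0536).

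The genes most like each of the 3 were found by Pearson's r over the 8 group means, among 1675 other tested genes with a locus code and a range of at least 1. The 8 means share the same arrays, and with 1 high group and 7 low ones r mainly records that Col ethylene was high, so it is a description. CSLC12 and AT2G39690 were each other's nearest gene (r = 0.992). AT5G60630 was nearest to CSLC12 (0.963) and then to AT2G39690 (0.951). Outside the 3, CSLC12 was most like XTH26 (0.978), RR16 (0.976), a cytokinin response regulator, AT4G01110 (0.972) and AT1G70450 (0.966). AT2G39690 was most like RR16 (0.983), AT5G43230 (0.974), AT5G24880 (0.973) and AT3G01730 (0.972), and AT5G60630 was most like AT4G01110 (0.939), AT1G70450 (0.933) and AT1G06420 (0.928). Over the 16 single arrays the nearest gene was the same for each of the 3, but AT1G06420 had a rank of 56 for AT5G60630. Over the 14 arrays outside Col ethylene, r was 0.33 between CSLC12 and AT2G39690, 0.07 between CSLC12 and AT5G60630, and -0.15 between AT2G39690 and AT5G60630.

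**Figure D4:**
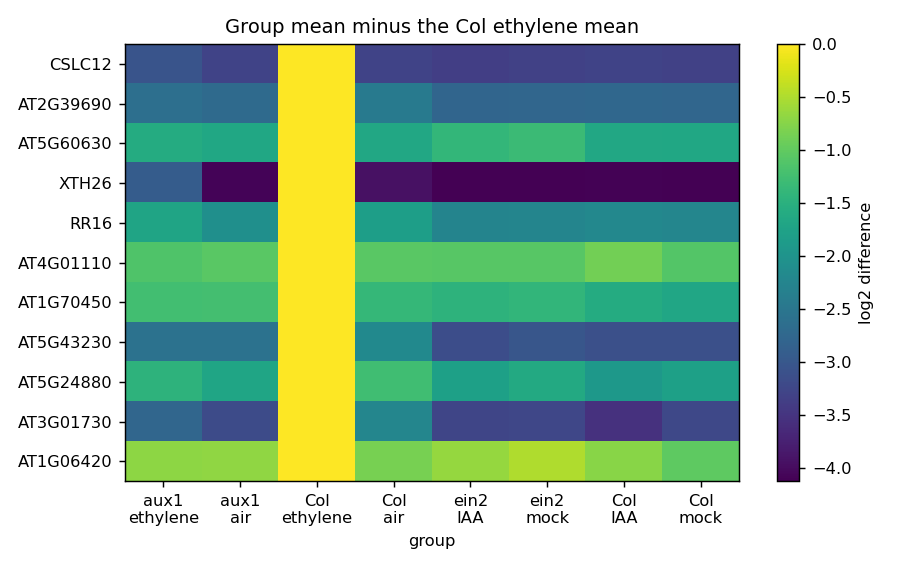
Mean of each of the 8 groups minus the Col ethylene mean (log2, colour scale) for the 3 genes and the 8 other genes with the most similar profiles. Col ethylene is 0 by construction, and all other groups are below it for every gene shown.

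The calls that describe the 3 genes were shared by few others. Of the 561 features called higher with ethylene in Col, 230 were not called with ethylene in aux1. Only 11 of the 561 were called with a lower ethylene effect in aux1, and 8 of these were not called with IAA in Col (0.0578% of all features). Of the 8, 4 had a locus code. These were the 3 genes and AT4G01110, which stood at -0.08 in aux1 and 1.05 ± 0.10 in Col with ethylene, a difference of -1.13 ± 0.14 (adjusted p = 0.00713, and 0.161 with an intensity trend in the limma fit or 0.204 with the ethylene experiment by itself). Some genes with a locus code shared the other calls but had no call for a lower ethylene effect in aux1. By size of that difference, the first of them were XTH26 (-2.77 ± 0.70), AT5G43230 (-2.17 ± 0.54) and AT3G01730 (-1.80 ± 0.52). Their adjusted p in limma was 0.335, 0.311 and 0.448. AT3G57700 had a smaller difference (-1.38 ± 0.24) but came closer to a call (limma, adjusted p = 0.0584). AT5G60630, with the smallest difference of the 3 chosen genes, had a difference of smaller size than XTH26, AT5G43230 and AT3G01730, with a standard error of 0.22. When the ethylene experiment was fitted by itself, 3 features in place of 20 were called for the difference between the genotypes, and none of the 3 genes was among them. AT5G60630 was also not among the features called with an intensity trend in the fit, or without aux1 ethylene replicate 2, aux1 air replicate 1 or 2, or Col ethylene replicate 1.

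A level above 4 on both arrays of a single group and on no other array was also counted for each group, a count added after the values of the 3 genes had been seen. It was met by 2 features in aux1 ethylene (0.0145% of all features), 1 in aux1 air (0.00723%), 17 in Col ethylene (0.123%) and 1 in Col air (0.00723%). In the auxin experiment it was met by 12 in ein2 IAA (0.0867%), 6 in ein2 mock (0.0434%), 3 in Col IAA (0.0217%) and 1 in Col mock (0.00723%). Col ethylene also had the highest count with the level at 3.5 (19, against 13 in ein2 IAA and 2 in aux1 ethylene). The same held at 4.5 (17, against 11 in ein2 mock and 6 in aux1 ethylene). AT5G60630 was above 4.5 on 1 array and so left the count there. Of the 17 features of Col ethylene, 10 had a locus code. Beside the 3 genes these were XTH26, RR16, AT3G57700, AT1G55290, AT4G01110, AT5G64110 and AT5G36260. Their ethylene differences in Col ran from 0.45 for AT5G36260 to 3.94 for XTH26, and in aux1 from -0.13 to 1.64, the last of these for AT5G64110.

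**Figure D5:**
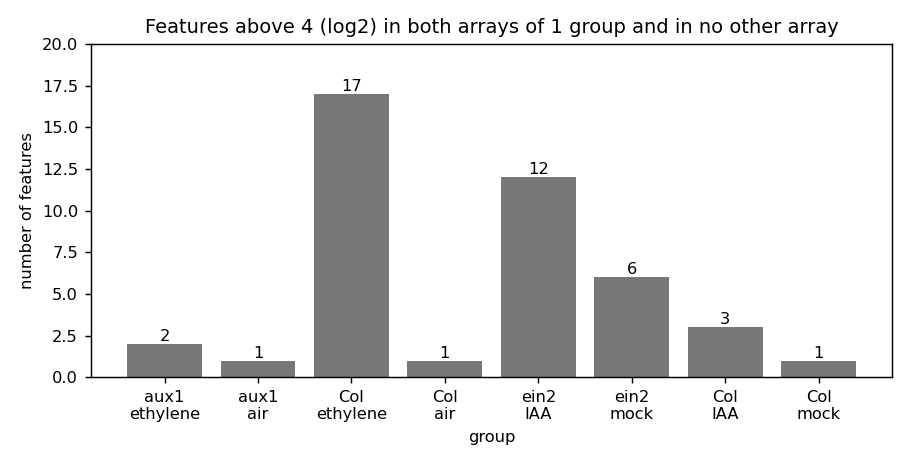
Number of features with a value above 4 (log2) on both arrays of 1 group and on none of the other 14 arrays, for each of the 8 groups. Col ethylene holds 17, against 12 in ein2 IAA, 2 in aux1 ethylene and 1 in Col air.

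The genes that flank the 3 in the RefSeq gene table (TAIR10.1 assembly) were examined for similar changes, a check added after the values had been seen. Of the 3 protein-coding genes on each side of CSLC12, 2 were tested and 0 were called with ethylene in Col (4.05% of all features were called higher and 4.76% lower), namely AT4G07940 (-0.22 ± 0.16) and AT4G07990 (-0.35 ± 0.16). Beside AT2G39690, 5 of 6 were tested and 1 was called lower, beside the same 4.76%. This was EXPA4, the adjacent gene, which encodes an expansin and fell by 1.63 ± 0.35 with ethylene in Col (limma, adjusted p = 0.0125), opposite to AT2G39690. The call for EXPA4 was lost without Col ethylene replicate 2 (0.0772) or Col air replicate 2 (0.086) and with the ethylene experiment by itself (0.0755). The other tested flanking genes, AT2G39650, BIK1, AT2G39670 and AT2G39710, had ethylene differences from -0.55 to 0.21 in Col. No flanking gene of AT5G60630 was tested. None of the 7 tested flanking genes was called for the difference between aux1 and Col (adjusted p from 0.971 to 0.999).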

How the data were processed

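Per the submitters' processing notes, the deposited values are GCRMA expression values, 1 per probe set and array; version and settings are not given in the sources used here. Their log2 scale was read from the values (1.24 to 15.4, array medians 5.87 to 6.00). The authors' deposited log2 values were used as they are. Of 22810 probe sets, 13436 had 1 gene with a locus code in the annotation. Those of several genes (503), those without a locus code (77) and controls (64) were left out, the brightest probe set was kept for each of the 144 loci with several, and the 8730 unlisted probe sets were kept as features. Features above 4 on at least 2 arrays were tested (13836).

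Group means were estimated in limma 3.58.1 (R 4.3.3) from the 16 arrays together, with 8 residual and 3.39 prior degrees of freedom. Differences are given ± moderated SE, and calls use a two-sided Benjamini-Hochberg adjusted p under 0.05 over all features. With 2 arrays against 2, a permutation test cannot go below 0.33. On simulated data of 13836 features the fit recovered 93 of 100 features changed by 2 and 76 of 100 changed by 1 for ethylene in Col. There were 10 false calls among the unchanged features. The simulated spread of a feature was the same in every group, unlike that of the 3 genes. The 3 genes and the gene lists were chosen with earlier results of these data known. Named are the 3 genes, tested list genes (called, or in lists of at most 6), the 5 genes most like each, genes with the same calls (at most 10), and those said in the text to be chosen later. A planned list of relatives of AT2G39690 was not formed, as the annotation holds no text on protein families. Alternatives were median centring, quantile normalization, no filter or a filter at 6, a floor at 2.55, an intensity trend, averaged probe sets, 1 experiment alone, a 2-fold size limit, a block for the replicate number, and leaving out every array in turn (with the tested features kept).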

Additional observations from a re-analysis of the deposited data

Results flagged for a closer look

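The ethylene difference in aux1 minus that in Col is listed because it is far from 0 in the fit over all features, at -3.06 for CSLC12, -2.33 for AT2G39690 and -1.56 for AT5G60630. The 3 genes were chosen on this contrast, so the values are a description and no test is read from them. No group holds enough arrays to look for a single outlying one.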

How the results depend on the processing

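Across the settings other than left-out arrays, the ethylene difference of the 3 genes in Col ranged from 3.11 to 3.31 for CSLC12, 2.24 to 2.42 for AT2G39690 and 1.60 to 1.65 for AT5G60630. With the filter at 6 none of the 3 genes was tested. With 1 array left out the Col difference was 2.82 to 3.77, 2.15 to 2.68 and 1.49 to 1.80, and the difference aux1 minus Col was -3.53 to -2.59, -2.59 to -2.06 and -1.71 to -1.40. Several differences near 0 changed sign or moved. For ein2 against Col in mock, median centring gave -0.0075 for CSLC12 and -0.0199 for AT2G39690, quantile normalization -0.0042 for AT2G39690, and left-out arrays -0.00605 to 0.0369 for CSLC12, -0.0163 to 0.0224 for AT2G39690 and 0.12 to 0.61 for AT5G60630. The floor at 2.55 gave 0 for CSLC12 and AT2G39690 in ein2 against Col, in mock and with IAA. It also gave 0 for the IAA effect of CSLC12 in Col, of AT2G39690 in ein2, and of both in ein2 minus Col. For IAA in Col, AT2G39690 was -0.0086 and -0.0064 and AT5G60630 -0.0067 and -0.011 after median centring and quantile normalization. Quantile normalization gave -0.036 for CSLC12 and -0.0028 for AT2G39690 for the IAA effect, ein2 minus Col, and -0.049 for AT5G60630 in aux1 against Col in air. Left-out arrays put that IAA effect at -0.098 to -0.043, -0.057 to -0.018 and -0.34 to 0.14. The cause was not tested. For AT5G60630 in mock, both ends of the range of 0.12 to 0.61 for ein2 against Col came from fits with a single ein2 mock array.

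The number of features called was 1219 for ethylene in Col (675 in a fit on 1 experiment alone, 511 with a 2-fold size limit, 720 to 1266 with an array left out) and 982 in aux1 (497, 407, and 513 to 1043). For the ethylene effect, aux1 minus Col, it was 20 (6 with the filter at 6, 3 with 1 experiment, 15 to 87 with an array left out). For IAA it was 959 in Col (312 with the size limit, 405 to 1016) and 449 in ein2 (209, 206 to 477). For the IAA effect, ein2 minus Col, limma called 0, with 622 at an unadjusted p under 0.05, 3 with no filter, 3 with the floor and 0 to 6 with an array left out. It was 94 for aux1 against Col in air (51 with 1 experiment, 64 to 192), 1534 for ein2 against Col in mock (553 with the size limit, 779 to 1637) and 998 with IAA (455, 513 to 1039).

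The replicate numbers are shared between groups by label only. The differences between replicates 1 and 2 correlated between groups at 0.31 to 0.42 in the ethylene experiment and 0.10 to 0.40 in the auxin experiment. With a replicate block, 1483 features were called for ethylene in aux1, 1566 for IAA in Col, 733 for IAA in ein2, 5 for ein2 minus Col, 171 for aux1 against Col in air and 2350 for ein2 against Col in mock.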
